A study of Bos taurus with 15 samples.

Results

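PDK4, ANGPTL4, GLUL, TXNIP, DDIT4, SESN1, IRS2, PIK3IP1, ERRFI1 and KLF15 are genes that act in fuel use or growth signalling. They are known to respond to glucocorticoids in various tissues. Probes were taken where the gene name or the bracketed symbol of the description in the array files was one of these 10 symbols, which found 9 of them. PIK3IP1 carries another name in the files (HGFL gene) and was found through its gene number in the RefSeq table of cattle genes. Each gene had 1 probe, printed as 2 spots, among 21475 bovine probes and 14737 distinct symbols. The names of PDK4 and IRS2 rest on a description that calls a cattle sequence similar to the human gene. Of the 10, 9 had a signal well above the local background on at least 7 of the 15 arrays and were tested, and KLF15 was not.

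The tissue was thymus of Holstein cows, taken at slaughter, with RNA of 1 animal on each 1-dye oligonucleotide array. The 7 control cows were untreated, and the 8 treated cows were dosed with oral prednisolone (a synthetic glucocorticoid) over 35 days, each receiving 30 mg a day. Ages, and the time between the last dose and slaughter, are not given in the sources used here. The summed signal of 19 thymocyte markers was 385 to 461 times the 75th percentile of the array over the 15 animals, and all 14 thymic epithelial markers on the array passed the filter.

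Glucocorticoids act through a nuclear receptor that switches many genes on or off directly, and in fasting or stress they turn tissues away from glucose and growth and towards fat and amino acid use. The genes described here act at separate steps of that change. The steps are pyruvate oxidation, uptake of lipid and glucose, glutamine synthesis, and signalling from insulin and growth factor receptors through PI3K and mTOR. In the thymus glucocorticoids also kill immature thymocytes, and because whole tissue was measured, fewer cells of a type and less RNA per cell cannot be told apart.

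The arrays lay on 4 slides that held the groups unevenly. Slide 1 held controls 1, 2 and 5 with prednisolone animal 6, slide 2 held control 3 with prednisolone animals 3, 5 and 8, slide 3 held controls 4, 6 and 7 with prednisolone animal 1, and slide 4 held prednisolone animals 2, 4 and 7 and no control. The first principal component of all tested probes held 42.5% of the variance, and 95.9% of that component lay between slides. Arrays of slide 4 had 840 to 1050 spots marked as outlying, against 5 to 17 on the others. Differences of the 9 tested genes are therefore given pooled and with slide as a block in the fit, which compares animals within slides 1 to 3. A value within a slide sets 1 animal of a group against 3 of the other group. For gene lists the blocked median is given where its sign turns or its size moves by over 1.5 times.

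No tested gene of the set passed the test between the groups. limma with Benjamini-Hochberg adjustment over 16068 probes called 0 of the 9 at an adjusted p under 0.05, as it called 0% of all probes, and the smallest adjusted p of any probe was 0.236. At an unadjusted p under 0.05 it gave 1 of the 9, PIK3IP1, against 7.08% of all probes (1138 probes, of which 640, or 3.98%, were higher and 498, or 3.1%, lower with prednisolone). With slide as a block limma again called 0 of the 9 at an adjusted p under 0.05, and 3 of the 9 (SESN1, DDIT4 and PIK3IP1) had an unadjusted p under 0.05, against 9.57% of all probes. The mean was lower in treated animals for 6 genes and higher for 3, and 50.1% of all probes were lower. The median log2 difference over the 9 genes was -0.0093 pooled and -0.12 in the blocked fit, and over all tested probes it was -0.00044 and 0.00029. In 0 of the 9 genes did the groups fail to overlap, against 0.112% of all probes. On simulated data of this size the same calculation found 46.8% of probes changed by 0.5 on the log2 scale and 79.6% of those changed by 1. These shares are averages over the simulated probes. Of the 9 genes, 7 had an SD over all animals above the median of all probes (0.26). The shares are therefore not rates for these genes.

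**Figure D1:**
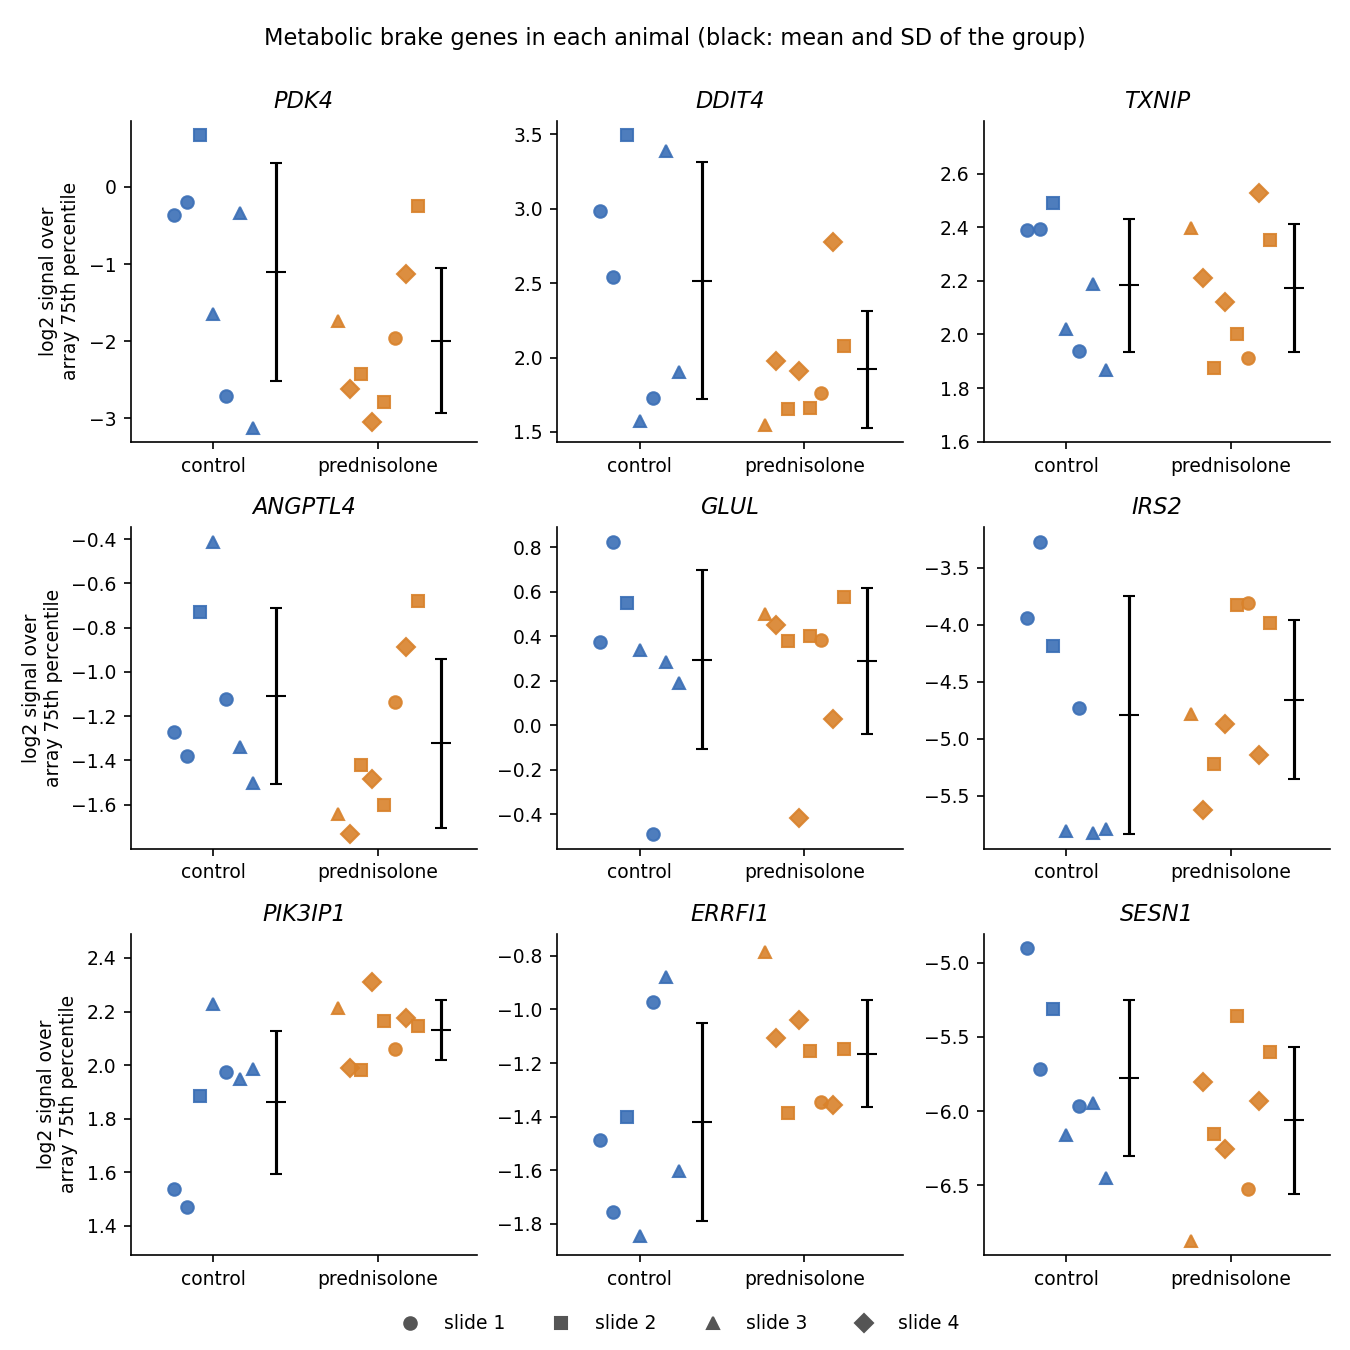
Each point is 1 animal, and the vertical axis is the log2 signal over the 75th percentile of its array. Each panel is a gene (controls left, prednisolone right), with colours for the groups, symbols for the slides and the group mean and SD in black. The groups overlap in every panel, and in the DDIT4 panel 4 controls stand above most treated animals.

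PDK4, the kinase that shuts pyruvate dehydrogenase and so holds back pyruvate oxidation, varied most among animals. All levels here are log2 signals relative to the 75th percentile of the array, so that 1 unit is a factor of 2, and levels of different probes are not compared. In controls PDK4 ran from -3.12 to 0.67 with a median of -0.36, and in treated animals from -3.05 to -0.24 with a median of -2.19. Across all 15 animals its level spanned 13.8-fold. Controls 1, 2, 3 and 6 were high, together with prednisolone animal 8. Controls 4 and 5 were lower, and control 7, at -3.12, lay just below the lowest treated animal. The means were -1.10 ± 1.42 (SD, n = 7) in controls and -1.99 ± 0.94 (SD, n = 8) with prednisolone. The difference was -0.89 ± 0.57 (SE) on the log2 scale, a fold of 0.539 with a 95% interval from 0.233 to 1.25 (limma, adjusted p = 0.775). In the blocked fit the difference was -1.13 ± 0.75 (SE, limma, adjusted p = 0.685). Within slides 1, 2 and 3 it was -0.87, -2.49 and -0.033. The interval reaches from a fall of more than a factor of 4 to a small increase.

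ANGPTL4, a secreted inhibitor of lipoprotein lipase that limits fat uptake, ran from -1.50 to -0.41 in controls (median -1.27) and from -1.73 to -0.68 in treated animals (median -1.45). The ranges covered nearly the same span. The difference was -0.21 ± 0.19 (SE), with a 95% interval from -0.62 to 0.19 (limma, adjusted p = 0.852), and in the blocked fit it was -0.31 ± 0.26 (SE, limma, adjusted p = 0.751). By slide the ANGPTL4 difference was 0.12, -0.50 and -0.56 within slides 1, 2 and 3, so that its sign turned. GLUL, glutamine synthetase, which joins ammonia to glutamate, ran from -0.49 to 0.82 in controls (median 0.34) and from -0.42 to 0.58 in treated animals (median 0.39). Its difference was -0.0075 ± 0.18 (SE), with a 95% interval from -0.39 to 0.38 (limma, adjusted p = 0.996). The GLUL difference with slide as a block was 0.095 ± 0.22 (SE, limma, adjusted p = 0.932), with the opposite sign. By slide it was 0.15, -0.095 and 0.23 within slides 1, 2 and 3. The 95% interval of the pooled GLUL fold ran from 0.763 to 1.30.

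TXNIP, an arrestin-like protein that binds thioredoxin and lowers glucose uptake, had almost the same level in both groups. Controls ran from 1.87 to 2.49 with a median of 2.19, and treated animals from 1.88 to 2.53 with a median of 2.17. The ranges nearly coincided. The difference was -0.0093 ± 0.12 (SE), a fold of 0.994 with a 95% interval from 0.827 to 1.19 (limma, adjusted p = 0.994). The TXNIP difference with slide as a block was -0.12 ± 0.16 (SE, limma, adjusted p = 0.857). Within slides 1, 2 and 3 it was -0.33, -0.42 and 0.37, so that its sign was not the same on all slides.

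DDIT4 (also called REDD1), a stress protein that holds back mTOR complex 1, ran from 1.58 to 3.50 in controls (median 2.54) and from 1.54 to 2.78 in treated animals (median 1.84). Controls 1, 3 and 6, at 2.99, 3.50 and 3.39, stood above every treated animal. Controls 4, 5 and 7, at 1.58, 1.73 and 1.91, lay inside the treated range. Among treated animals number 7 was highest at 2.78, and the other 7 lay between 1.54 and 2.07. The means were 2.52 ± 0.80 (SD, n = 7) in controls and 1.92 ± 0.39 (SD, n = 8) with prednisolone. The difference was -0.60 ± 0.30 (SE), a fold of 0.661 with a 95% interval from 0.427 to 1.02 (limma, adjusted p = 0.704). In the blocked fit the difference was -1.03 ± 0.37 (SE), with a 95% interval from -1.83 to -0.24 (limma, adjusted p = 0.398). Within slides 1, 2 and 3 it was -0.66, -1.70 and -0.75. Without the arrays of slide 4 it was -0.78 (limma, adjusted p = 0.519). DDIT4 was lower with prednisolone on each of the 3 slides that held both groups, by a size that did not pass adjustment over all probes. On each of these slides 1 of the groups was a single animal, and on slide 2 it was control 3, the highest of all.

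SESN1, a p53 target that lowers mTOR complex 1 activity and oxidative stress, was dim: its probe was well above background in 5 of 7 controls and 5 of 8 treated animals. It ran from -6.45 to -4.90 in controls (median -5.95) and from -6.87 to -5.36 in treated animals (median -6.04). The difference was -0.28 ± 0.25 (SE, limma, adjusted p = 0.846). In the blocked fit the difference was -0.69 ± 0.22 (SE), with a 95% interval from -1.18 to -0.21 (limma, adjusted p = 0.348). It was -0.996 within slide 1, -0.40 within slide 2 and -0.69 within slide 3. The log2 values of its 2 spots on an array differed by 0.29 at the median and by up to 1.11, which is larger than the pooled difference between the groups.

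IRS2, an adaptor that carries the insulin signal from the receptor to PI3K, was dim as well: its probe was well above background in 6 of 7 controls and 8 of 8 treated animals. It ran from -5.83 to -3.27 in controls (median -4.73) and from -5.62 to -3.81 in treated animals (median -4.83). Slides held 66.4% of its variance among animals, with slide means of -3.94, -4.30, -5.55 and -5.21. The difference between groups was 0.14 ± 0.42 (SE, limma, adjusted p = 0.967), and with slide as a block it was 0.35 ± 0.33 (SE, limma, adjusted p = 0.797). By slide this difference was 0.17, -0.16 and 1.02 within slides 1, 2 and 3. A further probe, which the files describe as similar to insulin receptor substrate 2, also held 71.3% of its variance between slides. Its means were -5.44 ± 0.44 (SD) in controls and -5.36 ± 0.75 (SD) with prednisolone.

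PIK3IP1, a membrane protein that binds and inhibits PI3K and is known as a brake on T cell activation, was the one gene of the set at an unadjusted p under 0.05 in the pooled fit, and its mean was higher with prednisolone. It did not reach that p without control 1, without control 2, without slide 4 or with the adipocyte mean as a covariate. Controls ran from 1.47 to 2.23 with a median of 1.95, and treated animals from 1.98 to 2.31 with a median of 2.16. The treated animals were tightly grouped, and controls 1 and 2, at 1.54 and 1.47, were the lowest of all. The means were 1.86 ± 0.27 (SD, n = 7) in controls and 2.13 ± 0.11 (SD, n = 8) with prednisolone. The difference was 0.27 ± 0.10 (SE), a fold of 1.20 with a 95% interval from 1.03 to 1.41 (limma, adjusted p = 0.655). In the blocked fit the difference was 0.26 ± 0.11 (SE), with a 95% interval from 0.0082 to 0.51 (limma, adjusted p = 0.507). It was 0.40 within slide 1, 0.21 within slide 2 and 0.16 within slide 3, the same direction on each. Again 1 of the groups was a single animal on each slide.

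ERRFI1 (also called MIG6), a feedback inhibitor of the EGF receptor family, ran from -1.85 to -0.88 in controls (median -1.49) and from -1.39 to -0.79 in treated animals (median -1.15). Controls 1, 2, 3, 4 and 7 lay below every treated animal, and controls 5 and 6 lay among the highest treated ones. The difference was 0.25 ± 0.15 (SE), a fold of 1.19 with a 95% interval from 0.962 to 1.48 (limma, adjusted p = 0.743). The ERRFI1 difference with slide as a block was 0.30 ± 0.20 (SE, limma, adjusted p = 0.695). Within slides 1, 2 and 3 it was 0.060, 0.17 and 0.66. KLF15, a zinc finger transcription factor that drives amino acid breakdown under glucocorticoids, was well above background in 0 of 7 controls and 0 of 8 treated animals, so that no difference was measured for it.

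**Figure D2:**
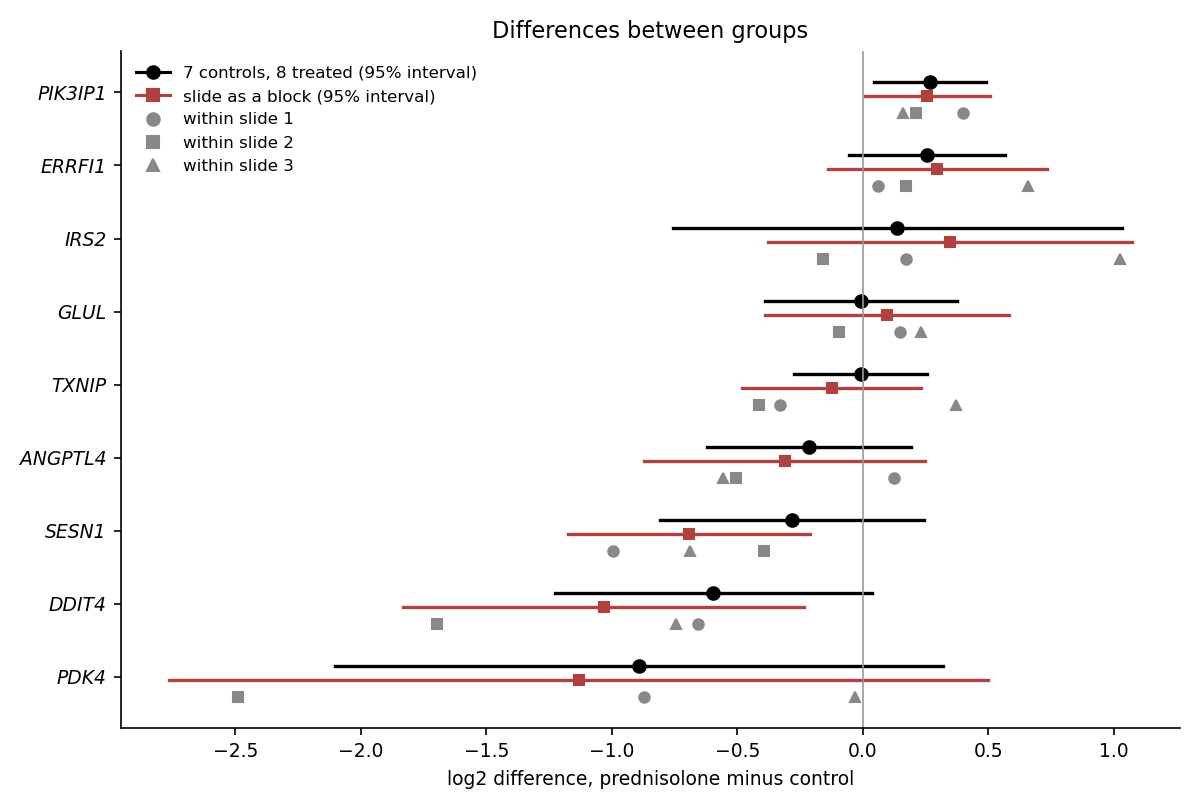
The log2 difference between prednisolone and control animals (horizontal axis) is drawn for each of the 9 tested genes, with its 95% interval from limma, pooled and with slide as a block, beside the values within slides. The pooled interval of PIK3IP1 lies above 0 and the other 8 include 0. With slide as a block the intervals of DDIT4 and SESN1 lie below 0 and that of PIK3IP1 lies just above 0. None of these passes adjustment over all probes.

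The controls were spread more widely than the treated animals. The control SD was larger than the treated SD in 9 of the 9 genes, with a median ratio of 1.49 and a range from 1.04 (TXNIP and ANGPTL4) to 2.37 (PIK3IP1), while over all tested probes it was larger in 34.1%, with a median ratio of 0.829. Without slide 4, which held only treated animals, the control SD was larger in 6 of 9 genes, with a median ratio of 1.56, against 54.5% of all probes and a median ratio of 1.05. The ratio was then 4.65 for GLUL (1.23 with slide 4), 3.93 for DDIT4, 2.91 for PIK3IP1, 1.62 for IRS2, 1.56 for ERRFI1, 1.45 for PDK4, 0.999 for TXNIP, 0.995 for ANGPTL4 and 0.835 for SESN1. These ratios are a description and were not tested. The SD over all animals exceeded the median of all probes (0.26) in 7 of the 9 genes.

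Each pair of the 9 genes was compared across the 15 animals, by permutation tests on 36 pairs. This comparison was added after the animals' values had been seen, so that its p-values are not independent evidence of a relation. PDK4 and DDIT4 correlated with Pearson r = 0.78 (permutation p = 0.00078, adjusted p = 0.0281) and Spearman rho = 0.59 (permutation p = 0.0227, adjusted p = 0.222). PDK4 and TXNIP correlated with r = 0.75 (permutation p = 0.00226, adjusted p = 0.0407) and rho = 0.70 (permutation p = 0.00455, adjusted p = 0.164). The other 34 pairs did not pass adjustment. With slide means removed, r was 0.82 for PDK4 with DDIT4 (permutation, adjusted p = 0.0396) and 0.88 for PDK4 with TXNIP (permutation, adjusted p = 0.0499). Without controls 2 and 3, the animals farthest from the median of PDK4, the coefficients were 0.69 and 0.66 (permutation, adjusted p = 0.150 for both). Neither pair passed with those animals left out, and no others were left out for comparison. A slide held too few animals for a value of its own.

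Part of such a pooled relation can lie between the groups, so the pairs were also computed within each group. Across the 7 controls r was 0.96 for PDK4 with TXNIP (exact permutation p = 0.00060, adjusted over 72 relations to 0.0429) and 0.85 for PDK4 with DDIT4 (exact permutation p = 0.0266, adjusted p = 0.383). Across the 8 treated animals r was 0.62 for PDK4 with TXNIP (exact permutation p = 0.105, adjusted p = 0.478) and 0.47 for PDK4 with DDIT4 (exact permutation p = 0.241, adjusted p = 0.740). Whether the coefficients differ between the groups was not tested. PIK3IP1 ran against PDK4 (r = -0.49), DDIT4 (r = -0.51) and SESN1 (r = -0.53) over the 15 animals, none of which passed.

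**Figure D3:**
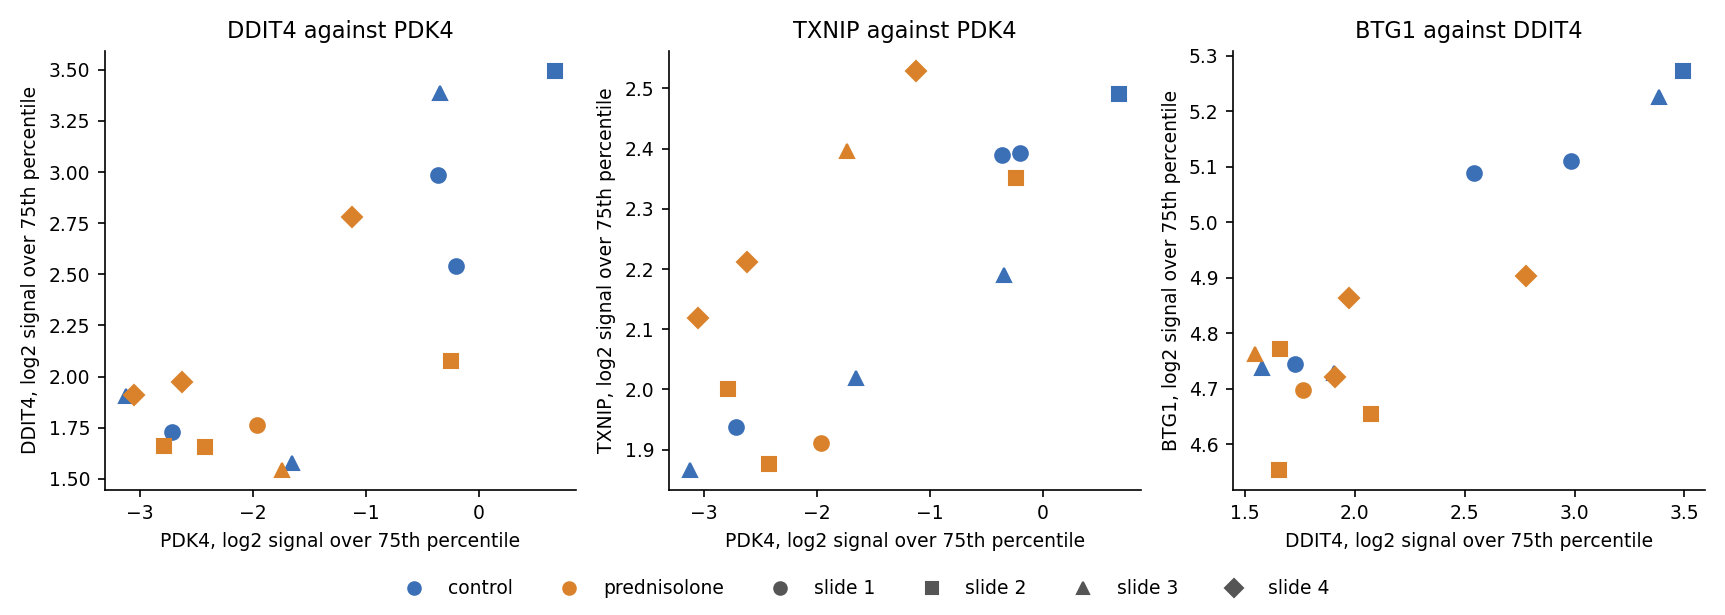
Each point is 1 of the 15 animals, with log2 signal over the 75th percentile of the array on both axes, colours for the groups and symbols for the slides. PDK4 rises with DDIT4 (r = 0.78) and with TXNIP (r = 0.75), controls 2 and 3 lie at the high end of PDK4, and the right panel sets DDIT4 against BTG1, its most alike gene (r = 0.91, 0.65 by rank).

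**Figure D4:**
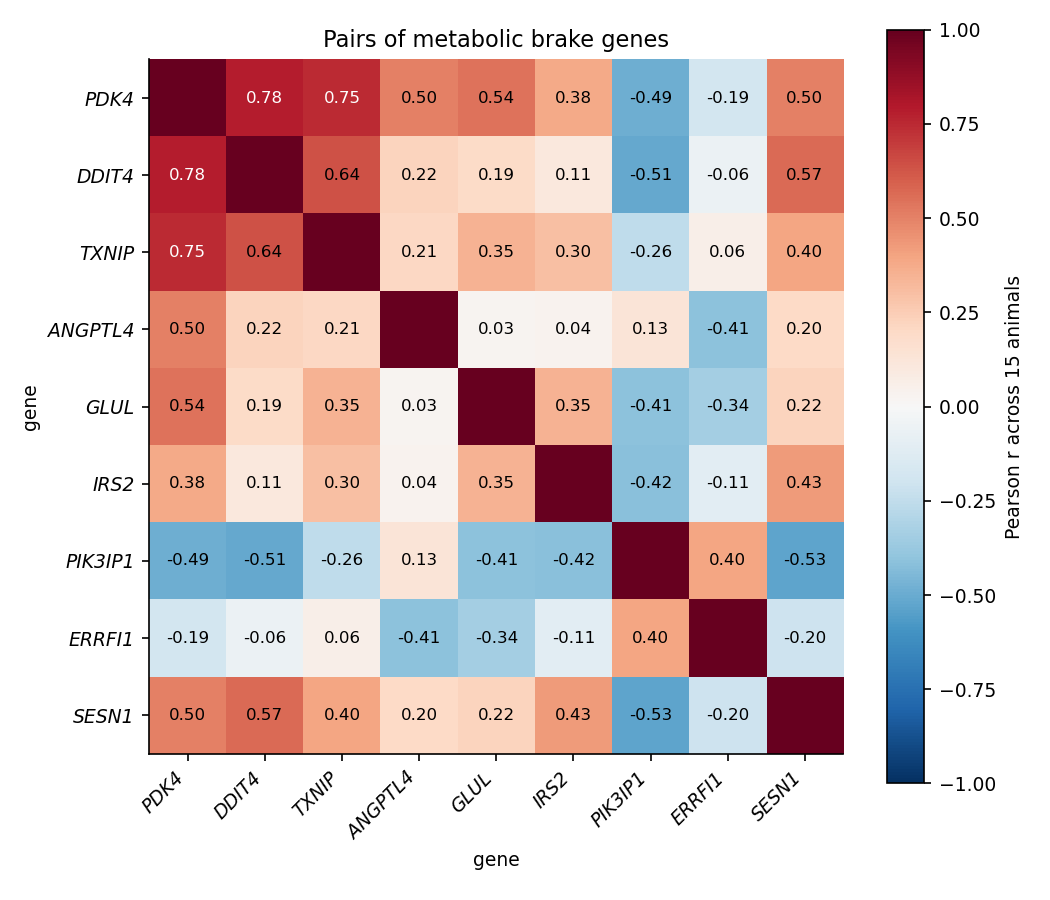
Pearson r over 15 animals is coloured and printed for each of the 36 pairs of the 9 tested genes, which are named on both axes. The coefficients of PDK4 with DDIT4 (0.78) and with TXNIP (0.75) are the highest, and PIK3IP1 has negative coefficients with PDK4, DDIT4 and SESN1.

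The glucocorticoid receptor and its textbook targets, such as SGK1, FKBP5 and TSC22D3, formed a list without these 9 genes. Of that list 16 of 18 genes were tested, 6 were higher and 10 lower with prednisolone, 0 passed and the median difference was -0.11 pooled and -0.18 in the blocked fit. The mean of 15 targets in each animal was set against each of the 9 genes, also after the values were seen, in a family of 27 relations that also holds the marker means of fat and muscle. PDK4 correlated with it at r = 0.81 (permutation p = 0.00047, adjusted p = 0.00648) and rho = 0.68 (permutation, adjusted p = 0.0576). SESN1 did so at r = 0.79 (permutation p = 0.00048, adjusted p = 0.00648) and rho = 0.84 (permutation, adjusted p = 0.00513). DDIT4 reached r = 0.68 (permutation, adjusted p = 0.0515), and the other 6 genes did not pass. SESN1 was dim, as given above, and the target mean includes a dim TSC22D3 probe that ran from -8.24 to -4.82. The part of such dim signals in these relations was not tested.

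With slide means removed, r with the target mean was 0.85 for PDK4 and 0.79 for DDIT4 (permutation, adjusted p = 0.0382 for both) and 0.70 for SESN1 (permutation, adjusted p = 0.125). Without controls 1 and 3, the animals farthest from the median of the target mean, r was 0.71 for PDK4 (permutation, adjusted p = 0.0964). It was 0.66 for SESN1 (permutation, adjusted p = 0.127) and 0.47 for DDIT4 (permutation, adjusted p = 0.322). None passed with those animals left out, and no others were left out for comparison. Within groups, r of DDIT4 with the target mean was 0.85 in controls and 0.16 in treated animals, a difference that was not tested. The target mean was highest in controls 1, 2 and 3 and prednisolone animal 8, at -0.54, -0.62, -0.50 and -0.57, and PDK4 was high in the same 4 animals. Control 6 had PDK4 as high, at -0.34, with a target mean of -0.86, and prednisolone animal 5 had a target mean of -0.84 with low PDK4, at -2.79.

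The thymus lies in fat and near muscle, where PDK4, ANGPTL4, GLUL and KLF15 are also expressed. Adipocyte markers were higher with prednisolone in 15 of 15 tested genes, with a median of 0.28 and 0 passing, and their summed signal ranged from 12.7 to 27.4 times the 75th percentile in controls and from 15.1 to 47.3 in treated animals, while ADIPOQ and LEP were below the filter. Their median was 0.73 in the blocked fit, and it was 0.48 within slide 1, -0.18 within slide 2 and 1.93 within slide 3. Muscle markers were higher in 9 of 14 tested genes, with a median of 0.089 pooled and -0.28 in the blocked fit, and medians of 1.21, 0.21 and -2.02 within slides 1, 2 and 3, so that the direction turned with the slide. Their summed signal ranged from 4.05 to 15.8 in controls and from 3.19 to 15.3 in treated animals, while CKM, TTN and ACTN2 were below the filter. Of 18 relations of the 9 genes with the fat and muscle means, 0 passed when adjusted over these 18. The adjusted p-values that follow are over the family of 27 relations that includes the target mean, and are not those of the 18 alone. The fat mean gave r = 0.51 with PIK3IP1 (permutation p = 0.0478, adjusted p = 0.161), 0.36 with ANGPTL4 and 0.30 with PDK4. Without prednisolone animals 1 and 8, the farthest from the median of the fat mean, r with ANGPTL4 was 0.72 (permutation p = 0.00579, adjusted p = 0.0964), and with slide means removed r with IRS2 was 0.57 (permutation p = 0.0479, adjusted p = 0.185). Within the 7 controls r of the fat mean with ANGPTL4 was 0.88, and within the 8 treated animals it was 0.20.

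For each tested gene the 2 most alike of 11701 other genes were sought, by Pearson r over the 15 animals. They were picked as the highest of all, so that no p is given. PDK4 was most like BMF, a pro-death relative of BCL2 (r = 0.87), and SEC14L1 (r = 0.85). DDIT4 was most like BTG1, an antiproliferative gene of lymphocytes (r = 0.91), and ZNF131 (r = 0.90). TXNIP was most like TLE1 (r = 0.85) and PGM5 (r = 0.80). With slide means removed BMF stood at 0.88, BTG1 at 0.93 and TLE1 at 0.85, close to the values with slides in place. By rank the coefficients were 0.79 for BMF, 0.65 for BTG1 and 0.86 for TLE1.

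ANGPTL4 was most like KLF11 (r = 0.82) and VWF, the von Willebrand factor of endothelium (r = 0.81). GLUL was most like CD163, the haemoglobin scavenger receptor of macrophages (r = 0.86), and SLC25A17 (r = 0.84). The GLUL coefficients by rank were lower, at 0.65 and 0.49. IRS2 was most like ASB3 (r = 0.95) and LANCL2 (r = 0.93), and with slide means removed these were 0.88 and 0.85. PIK3IP1 was most like PI4KA (r = 0.84) and PIGS (r = 0.83), ERRFI1 like TNXB (r = 0.79) and PARK7 (r = 0.75), and SESN1 like OAS1X (r = 0.85) and CLDN4 (r = 0.84).

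The pathways around these genes were described by 10 further lists, each with 0 genes past the adjusted threshold in either direction, and for each the gene with the smallest p is named. Around PDK4, the pyruvate dehydrogenase complex and its regulators were higher in 9 and lower in 5 of 14 tested genes, with a median of 0.026, and PDP1, the opposing phosphatase, differed by 0.25 ± 0.20 (SE, limma, adjusted p = 0.836). Glucose uptake and glycolysis were higher in 13 and lower in 11 of 24, with a median of 0.013, and HK1, hexokinase, differed by 0.21 ± 0.10 (SE, limma, adjusted p = 0.700). Fatty acid use and lipoprotein lipase genes, the setting of ANGPTL4, were higher in 9 and lower in 7 of 16, with a median of 0.012, led by the nuclear receptor RXRA at 0.25 ± 0.12 (SE, limma, adjusted p = 0.701). With slide as a block the median of the pyruvate dehydrogenase list was -0.0069 and that of the fatty acid list 0.032.

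Glutamine and ammonia handling, the setting of GLUL, was higher in 7 and lower in 11 of 18 genes, with a median of -0.017, and SLC1A5, a glutamine transporter, differed by 0.73 ± 0.28 (SE, limma, adjusted p = 0.655). A list of branched-chain amino acid genes and KLF15 targets was higher in 9 and lower in 4 of 13, with a median of 0.031. It was led by BCAT1 at 0.21 ± 0.098 (SE, limma, adjusted p = 0.700). Beside genes of branched-chain amino acid breakdown, that list held PRODH, KLF2, KLF4, KLF6 and KLF10. The thioredoxin system and arrestin family, the setting of TXNIP, was higher in 6 and lower in 11 of 17, with a median of -0.070. Its gene of smallest p was MLXIPL, the glucose-sensing factor that is known to switch TXNIP on, at 0.40 ± 0.16 (SE, limma, adjusted p = 0.677). Blocked by slide, the median was 0.0083 for the glutamine list and -0.024 for the thioredoxin list.

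PI3K, AKT and mTOR genes, the pathway that DDIT4, SESN1, IRS2 and PIK3IP1 act on, were higher in 15 and lower in 17 of 32, with a median of -0.0025, led by the lipid phosphatase INPPL1 at 0.26 ± 0.12 (SE, limma, adjusted p = 0.700). FOXO factors and their targets were higher in 11 and lower in 8 of 19, with a median of 0.00097, and PCK1, which makes glucose precursors, differed by 1.15 ± 0.47 (SE, limma, adjusted p = 0.677) while being well above background in 3 of 7 controls and 7 of 8 treated animals. The p53 and energy-stress list, the setting of SESN1, was higher in 8 and lower in 11 of 19, with a median of -0.019, led by PRKAB1, a subunit of AMP kinase, at 0.30 ± 0.099 (SE, limma, adjusted p = 0.622). ErbB receptors and feedback genes, the setting of ERRFI1, were higher in 9 and lower in 3 of 12, with a median of 0.10 and SHC1 at 0.14 ± 0.077 (SE, limma, adjusted p = 0.732), and EGFR itself was below the filter. Blocked by slide, the medians were 0.019 for the PI3K list, 0.038 for FOXO, 0.050 for p53 and -0.0089 for ErbB, so that all but FOXO turned sign. SGK1 had the smallest p among the receptor's targets, at -0.23 ± 0.10 (SE, limma, adjusted p = 0.700).

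Markers of other cells, and of liver, testis and thyroid, had 0 genes past the adjusted threshold as well. Thymocyte markers were higher in 16 of 19 genes (median 0.085, led by CD8A), B cell markers in 8 of 9 (0.26, BLNK), fibroblast markers in 10 of 15 (0.12, PDGFRB), thymic epithelial markers in 7 of 14 (-0.0045, PRSS16) and endothelial markers in 4 of 11 (-0.042, FLT4). Macrophage markers were lower in 14 of 14 (median -0.25, HMOX1) and red blood cell markers in 6 of 6 (-0.36, EPB42), and with slide as a block these medians were -0.15 and 0.030. Thymic epithelial and endothelial medians were 0.056 and 0.099 in that fit. Liver markers were higher in 6 of 8 (0.87, TF), testis markers in 1 of 5 (-1.39, TNP2) and thyroid markers in 2 of 5 (-0.039, SLC26A4). With slide as a block these medians were 0.10, -0.98 and 0.0021. The liver median was 0.015 within slide 1 and -0.38 within slide 3, and was highest within slide 2. The testis median was -1.46, 0.74 and -2.22 within slides 1, 2 and 3. Fat and muscle had PNPLA2 and COX6A2 as their genes of smallest p. The part of these cells and tissues in the levels of the 9 genes was not tested beyond the fat and muscle relations above.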

How the data were processed

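RNA of 15 thymuses, 7 control and 8 prednisolone, was measured on Agilent bovine arrays, 1 animal each. Per the file headers, Feature Extraction 9.5.1.1 produced the deposited spot intensity values, whose processed form had background removed and no scaling from array to array. Spot flags (other values) mark spots well above background, saturated or outlying, per the file headers. A series-wide table with 44396 entries holds the authors' own intensity values. Its column medians were 248.8, 214.2, 201.9, 238.6, 274.1, 245.5 and 246.9 in controls 1 to 7 and 225.3, 207.3, 228.4, 206.8, 188.5, 216.2, 204.0 and 198.3 in treated animals 1 to 8. Its scale is linear and its direction that of the signal (rank correlation at least 0.99963), and its centring is unknown. R 2.11.1 was used, per the submitters' processing notes. Other steps are not given in the sources used here.

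Log2 processed signals were centred on each array's 75th percentile of bovine spots, outlier spots were left out (1 PDK4 spot, prednisolone animal 7; no spot of these genes was saturated), and spots of a probe were averaged. Of an array's spots 67.1% to 77.7% were well above background, array pairs correlated at r = 0.967 to 0.991 across probes, and precision is limited by how many arrays there are. Groups came from the treatment labels and were tested against each other by limma 3.58.1 (R 4.3.3, statmod 1.5.0, version 1.17.8 of data.table) over 16068 probes (11758 genes). Relations used permutation tests in Python 3.11.15 (numpy 2.4.6, scipy 1.17.1, pandas 2.3.3), and plots matplotlib 3.10.9. Of the probes 9716 were named through a gene number, 3398 through an accession, 3006 by description and 304 by gene name, and 5051 had no symbol. Sequences and coordinates are not analysed here.

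All tested members were named, and from each of the 23 lists the gene with the smallest p. The members and lists were chosen with earlier results of these data known, and the relations with glucocorticoid targets and between members were added after the values were seen. The limma step was tested on simulated data (16002 probes, 10 runs, each with 50 probes altered per size), where 4.44% of calls were false. Alternatives were quantile normalization, median centring, normexp (offset 50), the deposited table, a looser and a stricter filter, no removal of outlier spots, slide as block, leaving out slide 4, a trended robust eBayes, array weights, an adipocyte covariate, averaged probes and leaving out each animal.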

Additional observations from a re-analysis of the deposited data

Results flagged for a closer look

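The DDIT4 level of prednisolone animal 7, at 2.78 on the log2 scale, stood apart from the other 7 treated animals, which lay between 1.54 and 2.07. Its gap to the nearest animal was larger than expected for a group of 8 by Dixon's criterion. Levels in 24 groups were tested this way, and chance marks about 1 in 20. The array lay on slide 4, which held only treated animals.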

How the results depend on the processing

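No paired analysis was possible because replicate numbers were given in sample order and the labels hold none that the groups share. The number of the 9 genes past the threshold was 0 under every alternative, with a smallest adjusted p of 0.236 (limma). Over all probes it was 1 with quantile normalization, against 0, and between 0 and 3 when each animal was left out, with 3 without prednisolone replicate 1. At an unadjusted p the split of higher and lower probes was 640 and 498, and it was 719 and 719 with quantile normalization, 547 and 649 with median centring and 371 and 2616 with normexp. The members' median difference was -0.30 with normexp, where that of all probes was -0.21, and -0.40 within slide 2, and it ran from -0.14 to 0.035 with each animal left out.

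Differences of PDK4 (-1.20 to -0.73), DDIT4 (-1.03 to -0.54), SESN1 (-0.82 to -0.15), ANGPTL4 (-0.32 to -0.19), PIK3IP1 (0.22 to 0.32) and ERRFI1 (0.068 to 0.30) kept their sign in every fit, within-slide values aside. With each animal left out they ran from -1.23 to -0.60, -0.75 to -0.43, -0.40 to -0.14, -0.31 to -0.097, 0.20 to 0.33 and 0.18 to 0.35. The differences nearest to 0 changed sign: TXNIP was 0.013 with median centring and 0.053 with normexp. GLUL was 0.015 with median centring, 0.095 and 0.043 with slide as a fixed or random block, 0.15 without slide 4 and 0.030 with array weights. IRS2 was -0.66 with normexp. With each animal left out TXNIP ran from -0.062 to 0.042, GLUL from -0.14 to 0.093 and IRS2 from -0.036 to 0.39. The cause was not tested. Of the relations with the target mean 2 passed, 0 without the 2 farthest animals and 1 by rank, and of the pairs 2 passed, 0 without the 2 farthest animals and 0 by rank.

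The filter on all 15 arrays leaves out IRS2 and SESN1, which are near background. Averaging probes changes nothing where a gene has 1 probe. All arrays were scanned on 1 day, so the day could not be varied.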
